A study of Trichoderma reesei with 9 samples.

Results

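Genes of amino acid, peptide and nitrogen uptake were followed in Trichoderma reesei, a mould used to make cellulases. The genes were taken from the deposited count table by words in the gene description (amino acid permease or transporter, oligopeptide, peptide transporter, ammonium, nitrate, nitrite, urea, allantoate, purine permease, uracil permease), which matched 40 of 10348 genes. Of these, 32 are described as amino acid transporters or permeases, 2 as ammonium permeases, 2 as cytosine-purine permeases, and 1 each as peptide transporter, urea transporter, urease and nitrate reductase. Urease and nitrate reductase are enzymes and not transporters. Mycelia of 3 strains were compared, with 3 libraries each: Rut-C30-delta-vps21 (Δvps21), Rut-C30-delta-vps13 (Δvps13) and their parent Rut-C30, which keeps its label wild type below but is itself a cellulase-hyperproducing mutant. All mycelia had grown for 96 h (4 days) on Avicel, a microcrystalline cellulose that induces cellulases. Neither the origin of the replicates (separate cultures or one) nor the number of clones per deletion is given in the labels, so p-values reflect the spread between libraries, which may be technical.

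Fungi take up amino acids through proton-coupled permeases of the plasma membrane, short peptides through oligopeptide transporters, and ammonium, urea and purines through carriers of their own. In yeast, many of these permeases are made or withdrawn according to the nitrogen source, and withdrawn permeases travel through endosomes to the vacuole, where they are degraded. Yeast Vps21, a GTPase related to Rab5, acts in the fusion of endosomes on that route, and yeast Vps13 moves lipids where membranes touch. Yeast carriers with the Aa_trans domain include the Avt proteins, which move amino acids across the vacuolar membrane, whereas the AA_permease domain is typical of plasma membrane permeases such as Gap1.

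Library totals ran from 12127372 to 13493219 counts. The gene TRIREDRAFT_123015, described as a rab5-like GTPase, had 2, 2 and 2 counts in Δvps21, 1740, 1295 and 1147 in Δvps13, and 1607, 1365 and 1529 in wild type. The gene vps13 was not identified in the table. On the first principal component of all tested genes the Δvps21 libraries lay at 47.3 to 61 and the wild-type libraries at -51.3 to -47.5, whereas Δvps13 replicates 1, 2 and 3 lay at 14, 8.83 and -42.1. Δvps13 replicate 3 thus stood beside the wild type and apart from the other Δvps13 libraries. Hydrophobins coat aerial hyphae and conidia, and the summed level of the 4 hydrophobin genes was 8969 to 13340 CPM in Δvps21 and 1961 to 10820 CPM in Δvps13, against 3571 to 4400 CPM in wild type. Of these 4 genes 3 were tested, and 1, TRIREDRAFT_106538, was called higher in each comparison. Its mean was 1091 CPM in Δvps21, and in Δvps13 replicate 3 it had 4.37 CPM, below the wild type. Most of the sum came from hfb2 and hfb3 (means of 7503 and 2352 CPM in Δvps21), which were not called in any comparison. The gene hfb1 had 0 to 4 counts per library. The part of the hydrophobin genes in the differences given here was not tested.

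The summed level of the uptake genes was higher in Δvps21 than in wild type, and in Δvps13 it depended on the scaling. In deposited FPKM, which is per gene length, the 40 genes summed to 727.4, 680.3 and 943.4 in Δvps21, to 571.5, 510.2 and 542.9 in Δvps13, and to 350.9, 370.5 and 386.2 in wild type. On this scale the strains did not overlap. With library totals in place of the deposited scaling, an alternative chosen after seeing the data, the sums were 782, 666 and 879 in Δvps21, 690, 424 and 382 in Δvps13, and 430, 418 and 412 in wild type. All Δvps21 libraries were then still above the wild type, whereas Δvps13 replicate 2 was among the wild-type libraries and replicate 3 below them. In deposited FPKM the 8 genes with the Aa_trans domain made up most of the difference in Δvps21, in large part through 1 gene, TRIREDRAFT_121486. That gene had a mean of 114 FPKM in Δvps21 and 0.992 FPKM in wild type, where the class summed to means of 348.9 and 104.5 FPKM. By library, the class summed to 294.5, 316.9 and 435.4 FPKM in Δvps21, 173.9, 194.3 and 115.2 FPKM in Δvps13 and 102.6, 104.3 and 106.6 FPKM in wild type. By library totals Δvps13 replicate 3 was below the wild type in this class (81.1, against 114 to 126). The 11 genes with the AA_permease domain summed to 270.5, 225.2 and 336 FPKM in Δvps21, 193.4, 185.6 and 244.6 FPKM in Δvps13 and 141.9, 141.3 and 145.2 FPKM in wild type. The sum of the 13 amino acid transporter genes with no listed domain differed little, at means of 80.53 ± 10.5 FPKM in Δvps21, 81.81 ± 13.7 in Δvps13 and 71.28 ± 10.7 in wild type (SD, n = 3). Within it, TRIREDRAFT_81125 had a mean of 51.99 FPKM in Δvps21 and 28.51 in wild type. Of the 12 tested genes of this class, 9 had a negative and 3 a positive log2 in Δvps21 against wild type (median -0.496). In bulk RNA a change in the share of hyphae that express a gene and a change in the RNA per hypha cannot be told apart.

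**Figure D1:**
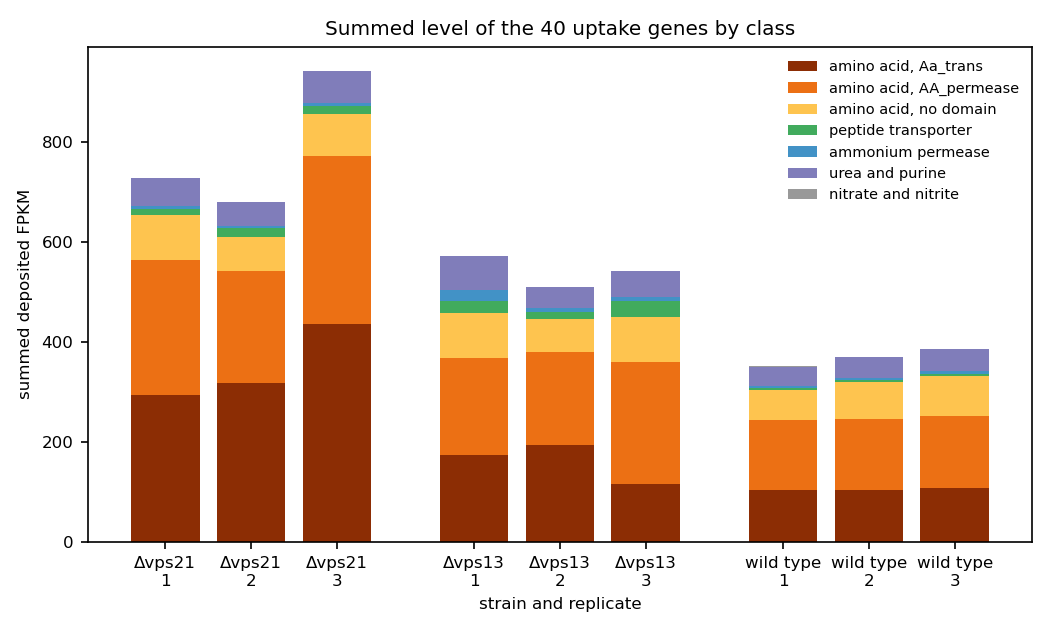
Summed deposited FPKM of the 40 uptake genes in each library (bars, by strain and replicate), stacked by class. The totals lie between 680.3 and 943.4 in Δvps21, between 510.2 and 571.5 in Δvps13 and between 350.9 and 386.2 in wild type, and the Aa_trans part is largest in Δvps21; with library totals in place of the deposited scaling, Δvps13 replicate 3 (382) is below the wild type (412 to 430).

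In Δvps21 the gene with the highest mean was TRIREDRAFT_121486 with 114 FPKM, which ranked 25 of 40 in Δvps13 (3.26 FPKM) and 31 of 40 in wild type (0.992 FPKM). In Δvps13 the highest was TRIREDRAFT_110813 (53.2 FPKM) and in wild type TRIREDRAFT_47175 (37.1 FPKM). The highest genes of a strain lay close together apart from TRIREDRAFT_121486: in Δvps21 the genes ranked 2 to 7 had means of 72.81 to 64.99 FPKM. The number of genes with a mean of 10 FPKM or more was 16 in Δvps21, 16 in Δvps13 and 15 in wild type.

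**Figure D2:**
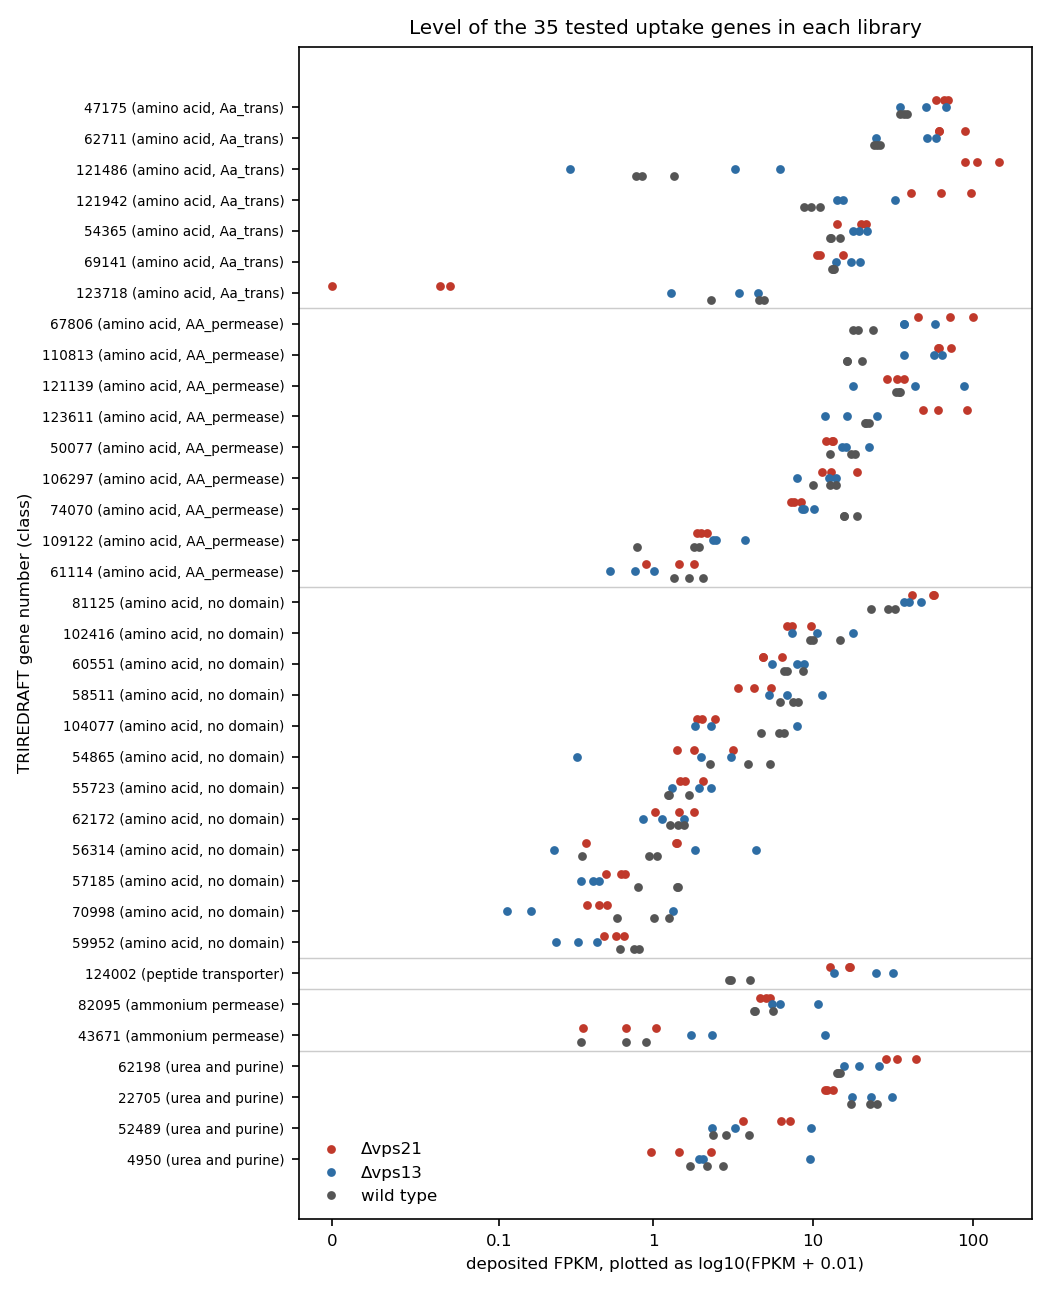
Deposited FPKM of each of the 35 tested uptake genes in every library (points; log scale with 0.01 added; red Δvps21, blue Δvps13, grey wild type), ordered by class and mean level. TRIREDRAFT_121486 and TRIREDRAFT_123718 show Δvps21 libraries far from all others, and the Δvps13 libraries of several genes are spread widely.

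Of the 40 genes, 35 had enough counts to be tested. The threshold for a call was an adjusted p of 0.05 by edgeR's quasi-likelihood test, with the Benjamini-Hochberg adjustment made over 8906 tested genes. Changes are given as log2 ratios with their standard error (SE). In Δvps21 against wild type, 10 of the 35 rose and 4 fell. That is 28.6% higher and 11.4% lower, where over all tested genes 16.7% were higher and 15.8% lower (32.5% called in all). In Δvps13 against wild type, 4 rose and 2 fell, or 11.4% and 5.71%, where over all tested genes 5.65% were higher and 4.75% lower (10.4% called in all). In Δvps21 against Δvps13, 4 were higher and 3 lower, or 11.4% and 8.57%, where over all tested genes 7.68% were higher and 7.55% lower (15.2% called in all). The comparisons share libraries, so their calls are not independent.

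The median log2 over the 35 genes was 0.07 in Δvps21 against wild type, beside -0.02 for all tested genes, and 0.40 in Δvps13 against wild type, beside 0.04. Scaled by library totals only, the medians over all tested genes moved to -0.20 and -0.26 (Δvps21 and Δvps13 against wild type). Those over the uptake genes moved to -0.11 and 0.06, so the sign of the Δvps21 median depended on the scaling. With that scaling 8 uptake genes rose and 4 fell in Δvps21, 3 rose and 4 fell in Δvps13, and 4 were higher and 2 lower in Δvps21 against Δvps13. Over all genes it gave 872 higher and 1678 lower in Δvps21 (1489 and 1408 with TMM scaling), 173 and 1089 in Δvps13 (503 and 423), and 691 and 395 in Δvps21 against Δvps13 (684 and 672). The Δvps13 counts depended on single libraries: without Δvps13 replicate 3, 14 rose and 6 fell (35.8% of all tested genes were then called), and without wild-type replicate 1, 2 or 3, 2 rose and 0 fell. With wild-type replicate 2 left out, 1.83% of all tested genes were called in that comparison. In Δvps21 against wild type, leaving out any 1 library gave 9 to 11 higher and 2 to 5 lower. The share of all tested genes called there ran from 18.9% (without Δvps21 replicate 3) to 46.9% (without Δvps13 replicate 3).

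**Figure D3:**
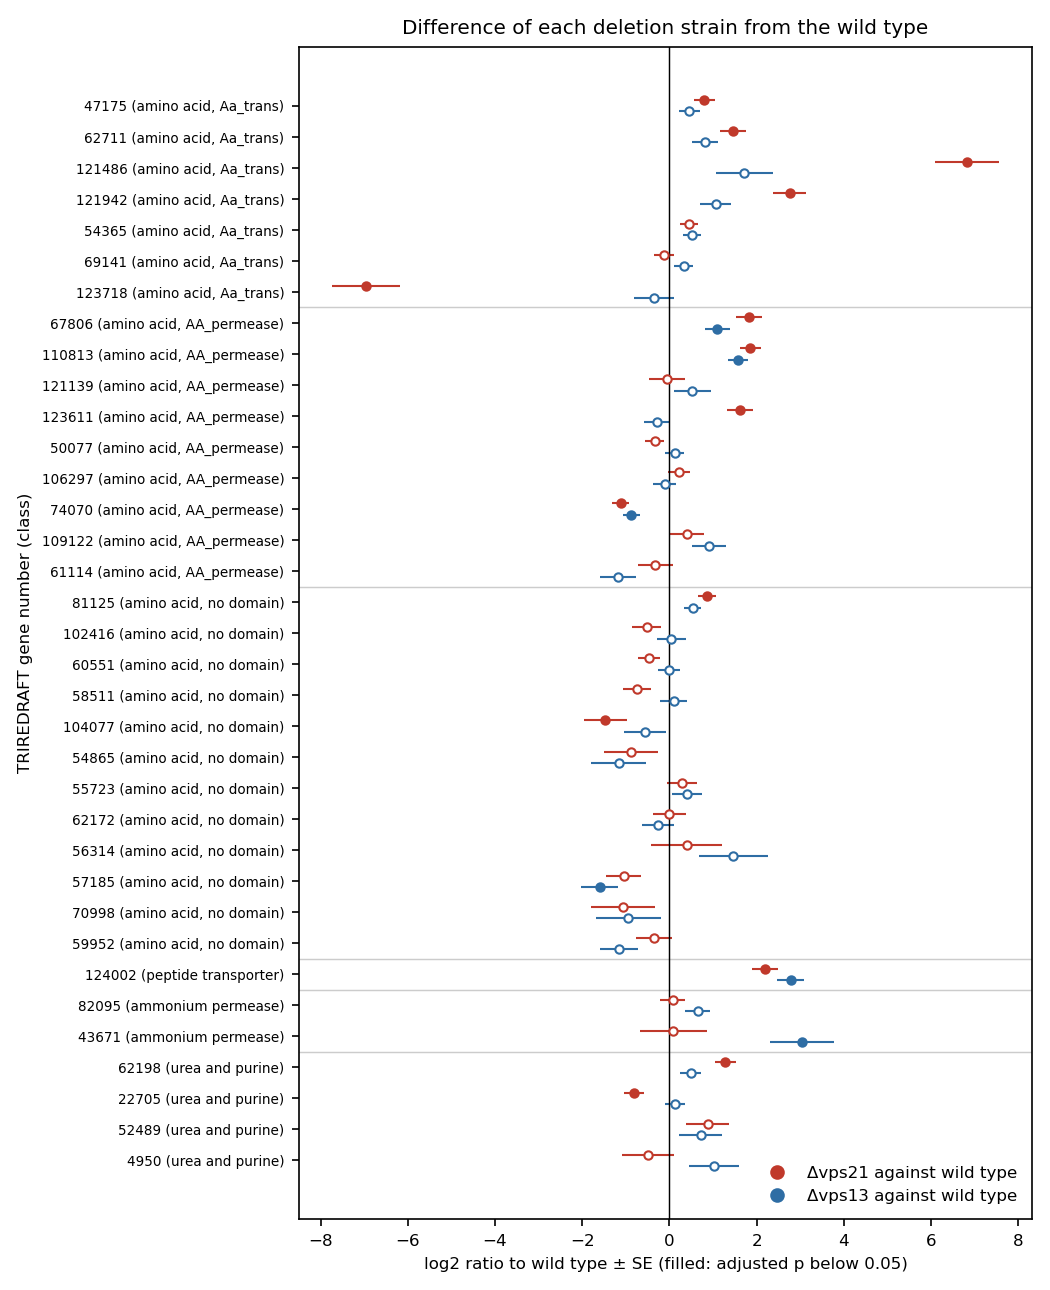
Log2 ratio to wild type with its SE for each of the 35 tested uptake genes (red Δvps21, blue Δvps13; filled points have an adjusted p below 0.05). In Δvps21, 10 genes rose and 4 fell, and in Δvps13, 4 rose and 2 fell.

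**Figure D4:**
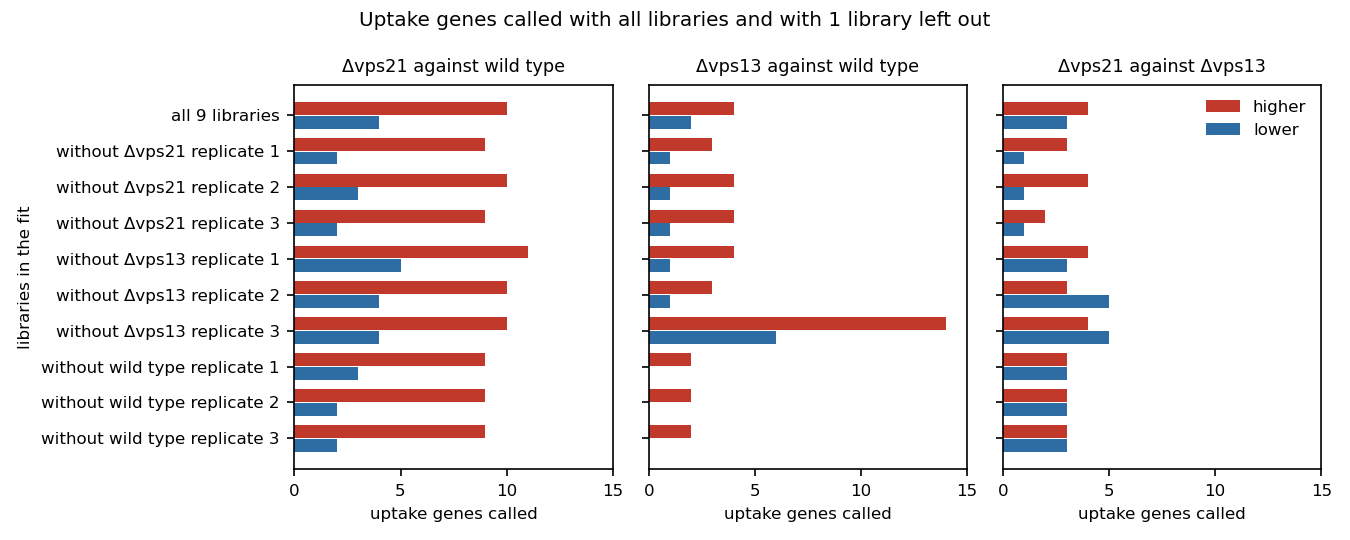
Number of uptake genes called higher (red) or lower (blue) in each comparison, with all 9 libraries and with each library left out in turn. The Δvps13 counts move between 2 and 14 higher and between 0 and 6 lower (1.83% to 35.8% of all tested genes called). The Δvps21 counts against wild type move between 9 and 11 higher and 2 and 5 lower (18.9% to 46.9% of all tested genes called).

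Among the 7 tested genes with the Aa_trans domain, 4 rose and 1 fell in Δvps21 against wild type. That is 57.1% and 14.3%, beside 16.7% and 15.8% of all tested genes. None of the 7 was called in Δvps13, where 5.65% of all tested genes were higher and 4.75% lower. There, 4 were higher and 0 lower at an unadjusted p below 0.05 (edgeR), and DESeq2 called 2 (18.2% of all tested genes). The largest rise was that of TRIREDRAFT_121486, a transmembrane amino acid transporter gene on the minus strand of scaffold NW_006711154.1 (1314499 to 1316154). It had 142, 171 and 230 CPM in Δvps21, 5.16, 9.79 and 0.472 CPM in Δvps13, and 1.26, 2.16 and 1.35 CPM in wild type. All Δvps21 libraries were far above all others, while the Δvps13 libraries lay on both sides of the wild type, with replicate 3 lowest. The gene rose 113-fold in Δvps21 against wild type (log2 6.82, SE 0.73, adjusted p = 0.000142) and was 34.5-fold higher in Δvps21 than in Δvps13 (log2 5.11, SE 0.66, adjusted p = 0.000815). Its difference in Δvps13 against wild type was not called (log2 1.71, adjusted p = 0.115), but was called by DESeq2 and without Δvps13 replicate 3 (adjusted p over all settings 0.000462 to 0.401).

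TRIREDRAFT_121942, a transmembrane amino acid transporter-like gene, had 109, 168 and 254 CPM in Δvps21, 37.4, 85.2 and 41.3 CPM in Δvps13, and 23.6, 25.8 and 29.1 CPM in wild type. In these TMM-scaled values the 3 strains did not overlap. The rise in Δvps21 was 6.76-fold (log2 2.76, SE 0.38, adjusted p = 0.000459). The gene was also higher in Δvps21 than in Δvps13 (log2 1.70, SE 0.36, adjusted p = 0.0107), a call that was lost without Δvps21 replicate 3 (adjusted p = 0.0563). In Δvps13 against wild type the log2 was 1.06 (adjusted p = 0.0818), called without Δvps13 replicate 1 or replicate 3.

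TRIREDRAFT_62711 had 110.5, 111.3 and 159.2 CPM in Δvps21, 105.6, 92.7 and 45.1 CPM in Δvps13, and 46.8, 44.1 and 47.4 CPM in wild type. All Δvps21 libraries and Δvps13 replicates 1 and 2 lay above the wild type, and Δvps13 replicate 3 lay among its libraries. The rise in Δvps21 was 2.75-fold (log2 1.46, SE 0.29, adjusted p = 0.00369), and in Δvps13 the difference was not called (log2 0.82, adjusted p = 0.094). This gene ends 370 bases from the end of cel7b, an endoglucanase gene on the opposite strand, which was at 2040 CPM in Δvps21, 1140 in Δvps13 and 386 in wild type and rose in both strains (log2 2.40 and 1.56). The labels name no strand-marking step, so reads that run past the end of cel7b would not be told apart from reads of its neighbour, and this was not tested.

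The most abundant Aa_trans gene of the wild type, TRIREDRAFT_47175, had 316, 283 and 330 CPM in Δvps21, 240, 320 and 169 CPM in Δvps13, and 190, 179 and 166 CPM in wild type. The Δvps21 libraries lay above the wild type, and the Δvps13 libraries overlapped with both. Its 1.74-fold rise in Δvps21 (log2 0.80, SE 0.24, adjusted p = 0.027) was lost without any 1 wild-type library without Δvps21 replicate 1 or 3 and when scaled by library totals only (highest adjusted p 0.151).

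One Aa_trans gene went the other way. TRIREDRAFT_123718, below the level set for naming genes and picked after its values were seen, had 1, 0 and 1 counts in Δvps21, 137, 28 and 57 counts in Δvps13, and 72, 139 and 117 counts in wild type. Its transcript was thus nearly absent from Δvps21 and present in all other libraries. From the summed counts (2 against 328), Δvps21 had 0.692% of the wild-type level after scaling (exact 95% counting interval 0.0835 to 2.52%), and 0.836% of the Δvps13 level (0.101 to 3.06%). The intervals cover counting error only. Both differences were called (adjusted p = 0.000182 and 0.000559), while Δvps13 and wild type were not called apart (log2 -0.36, adjusted p = 0.644). The gene lies on the minus strand of NW_006711172.1 (329551 to 331621). Its neighbours on both sides, TRIREDRAFT_123717 and TRIREDRAFT_123720, were not called in Δvps21 (log2 -0.16 and 0.22). The remaining tested Aa_trans genes, TRIREDRAFT_54365 and TRIREDRAFT_69141, were called in none of the 3 comparisons.

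**Figure D5:**
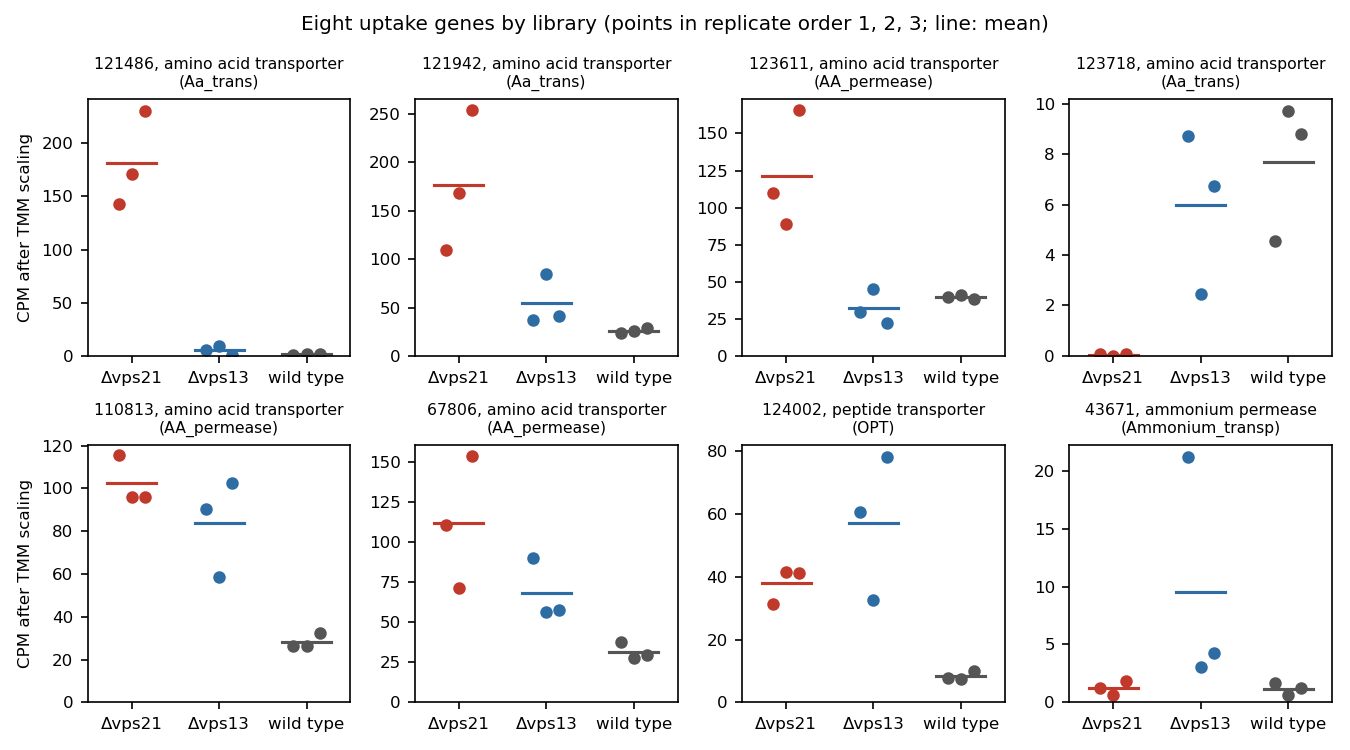
CPM after TMM scaling of 8 uptake genes in each library (points in replicate order 1, 2 and 3; lines are strain means; each vertical axis starts at 0). The upper row holds genes whose Δvps21 libraries differ from both other strains, and the lower row holds 3 genes that are higher in both deletion strains and 1 ammonium permease gene that is higher in Δvps13.

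Among the 9 tested genes with the AA_permease domain, 3 rose and 1 fell in Δvps21, and 2 rose and 1 fell in Δvps13, each against wild type. These are 33.3% and 11.1% in Δvps21 (16.7% and 15.8% of all tested genes), and 22.2% and 11.1% in Δvps13 (5.65% and 4.75%). TRIREDRAFT_110813 (NW_006711169.1, 364203 to 366052, minus strand) had 116, 96 and 96 CPM in Δvps21, 90.5, 58.6 and 103 CPM in Δvps13, and 26.5, 26.2 and 32.2 CPM in wild type. Both deletion strains were above every wild-type library, and they overlapped with each other. The gene rose 3.62-fold in Δvps21 (log2 1.86, SE 0.23, adjusted p = 0.000301) and 2.96-fold in Δvps13 (log2 1.57, SE 0.23, adjusted p = 0.00416). The strains themselves were not called apart (log2 0.29, SE 0.22, adjusted p = 0.421). TRIREDRAFT_110813 ends 31 bases from the end of TRIREDRAFT_81102, a predicted protein gene on the opposite strand. That neighbour was at 1160 CPM in Δvps21, 4270 in Δvps13 and 2990 in wild type, and fell in Δvps21 (log2 -1.37). With no strand-marking step named, reads that run past its end would not be told apart from reads of TRIREDRAFT_110813. Whether such reads contribute was not tested.

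TRIREDRAFT_67806 had 110.8, 71 and 153.8 CPM in Δvps21, 89.8, 56.6 and 57.6 CPM in Δvps13, and 37.9, 27.8 and 29.4 CPM in wild type. After TMM scaling both deletion strains again lay above the wild type and overlapped with each other. The rise was 3.52-fold in Δvps21 (log2 1.82, SE 0.30, adjusted p = 0.00134) and 2.15-fold in Δvps13 (log2 1.10, SE 0.30, adjusted p = 0.0387). The Δvps13 call was lost without any 1 wild-type library, without Δvps13 replicate 1 or 2 without Δvps21 replicate 1, in a fit of the 2 groups alone and when scaled by library totals only (highest adjusted p 0.17).

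TRIREDRAFT_123611 rose in Δvps21 and not in Δvps13. It had 110.1, 88.7 and 166.1 CPM in Δvps21, 29.6, 45.4 and 21.9 CPM in Δvps13, and 39.7, 41.3 and 38.1 CPM in wild type. The Δvps21 libraries lay above all others, and the Δvps13 libraries lay on both sides of the wild type. The gene was 3.06-fold higher in Δvps21 than in wild type (log2 1.61, SE 0.29, adjusted p = 0.00224) and 3.76-fold higher than in Δvps13 (log2 1.91, SE 0.30, adjusted p = 0.00231). In Δvps13 against wild type it had a log2 of -0.29 (adjusted p = 0.529).

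TRIREDRAFT_74070 fell in both deletion strains. It had 13.2, 13.7 and 15.1 CPM in Δvps21, 15.9, 18.1 and 15.5 CPM in Δvps13, and 34.9, 28.3 and 27.9 CPM in wild type. The wild-type libraries were above all libraries of both deletion strains. The log2 was -1.11 in Δvps21 (SE 0.20, adjusted p = 0.00188) and -0.88 in Δvps13 (SE 0.20, adjusted p = 0.0192), and the Δvps13 call was lost without any 1 wild-type library or with only the 2 groups fitted (highest adjusted p 0.0938).

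The other AA_permease genes were not called in any comparison. TRIREDRAFT_121139, the second most abundant uptake gene of the wild type by FPKM, had 59.9, 69.4 and 75.9 CPM in Δvps21, 36.8, 88.1 and 183 CPM in Δvps13, and 72.9, 69 and 71.8 CPM in wild type. Its Δvps13 libraries spanned a 4.99-fold range around closely spaced libraries of the other strains. It was picked after its values were seen.

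Of the 12 tested amino acid transporter genes with no listed domain, 1 rose and 1 fell in Δvps21 and 1 fell in Δvps13. These are 8.33% and 8.33% in Δvps21 (16.7% higher and 15.8% lower over all tested genes), and 8.33% lower in Δvps13 (4.75%). TRIREDRAFT_81125, an amino acid permease gene, had 93.9, 68.6 and 91.3 CPM in Δvps21, 76.6, 60.4 and 66 CPM in Δvps13, and 38.9, 48.9 and 52.8 CPM in wild type. After TMM scaling every deletion library was above every wild-type library. The difference was called in Δvps21 (log2 0.85, SE 0.20, adjusted p = 0.00902) but not in Δvps13 (log2 0.53, adjusted p = 0.114). The Δvps21 call was lost when scaled by library totals only (adjusted p = 0.107). The 2 genes of this class that fell are of low level and were named after their values were seen. TRIREDRAFT_104077 had 2.84, 3.71 and 3.05 CPM in Δvps21, against 7.33, 9.35 and 9.94 CPM in wild type (log2 -1.47, SE 0.50, adjusted p = 0.0421), a call lost without any 1 library of either strain. TRIREDRAFT_57185 had 0.637, 0.529 and 0.708 CPM in Δvps13, against 2.27, 1.26 and 2.18 CPM in wild type (log2 -1.60, SE 0.42, adjusted p = 0.0373), a call lost without any 1 of the 9 libraries except Δvps13 replicate 3.

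The peptide transporter gene rose in both deletion strains. TRIREDRAFT_124002 (NW_006711177.1, 28182 to 30902, minus strand) carries the OPT domain of oligopeptide transporters, which import short peptides with protons. It had 31.3, 41.4 and 41.2 CPM in Δvps21, 60.5, 32.7 and 78.2 CPM in Δvps13, and 7.71, 7.33 and 9.86 CPM in wild type. All 6 deletion libraries were above all wild-type libraries, and the deletion strains overlapped with each other. The rise was 4.57-fold in Δvps21 (log2 2.19, SE 0.31, adjusted p = 0.000537) and 6.88-fold in Δvps13 (log2 2.78, SE 0.31, adjusted p = 0.00123). Between Δvps21 and Δvps13 the log2 was -0.59 (SE 0.29, adjusted p = 0.198). By FPKM the gene ranked 12 of the 40 in Δvps21 and 8 in Δvps13, against 23 in wild type.

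Ammonium permeases import ammonium, a preferred nitrogen source of fungi. Of the 2 genes, TRIREDRAFT_82095 was the more abundant, with 8.39, 7.75 and 8.9 CPM in Δvps21, 17.7, 10.1 and 9.21 CPM in Δvps13, and 7.27, 7.26 and 9.26 CPM in wild type, and it was not called in any comparison. TRIREDRAFT_43671 had 1.21, 0.646 and 1.86 CPM in Δvps21, 21.2, 3.09 and 4.25 CPM in Δvps13, and 1.64, 0.628 and 1.21 CPM in wild type. Its Δvps13 libraries were above all others, with replicate 1 far above replicates 2 and 3. The gene rose in Δvps13 against wild type (log2 3.04, SE 0.73, adjusted p = 0.0259) and was lower in Δvps21 than in Δvps13 (log2 -2.95, SE 0.73, adjusted p = 0.0214). Without Δvps13 replicate 1 these were log2 1.66 (adjusted p = 0.0548) and -1.56 (adjusted p = 0.0525). The call against wild type was also lost without any 1 wild-type library and the call against Δvps13 without any 1 Δvps21 library. Both were lost in a fit of the 2 groups alone and by limma on log2(FPKM + 1).

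Among the genes of urea and purines, urease and 1 purine permease differed in Δvps21. Urease splits urea into ammonia and carbon dioxide, and its gene TRIREDRAFT_22705 had 30, 33.7 and 30.5 CPM in Δvps21, 78.7, 44 and 58.4 CPM in Δvps13, and 44.9, 58.3 and 63.1 CPM in wild type. The Δvps21 libraries were below all others. The gene was lower in Δvps21 than in wild type (log2 -0.82, SE 0.23, adjusted p = 0.0207) and than in Δvps13 (log2 -0.94, SE 0.23, adjusted p = 0.0211). Both calls depended on the libraries: the first was lost without wild-type replicate 2 or 3 or Δvps21 replicate 1 or 3, and the second without any 1 Δvps21 library, in a fit of the 2 groups alone and when scaled by library totals only (highest adjusted p 0.0914 and 0.122).

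The cytosine-purine permease gene TRIREDRAFT_62198, of the carrier family that imports nucleobases, had 49.8, 42.9 and 64.8 CPM in Δvps21, 23.2, 28.6 and 38.8 CPM in Δvps13, and 21.8, 22 and 20.9 CPM in wild type. In these TMM-scaled values the 3 strains did not overlap. The gene rose 2.44-fold in Δvps21 against wild type (log2 1.28, SE 0.23, adjusted p = 0.00226). It was also higher in Δvps21 than in Δvps13 (log2 0.80, SE 0.23, adjusted p = 0.0402), a call lost without any 1 wild-type library, Δvps13 replicate 1 or 2, or Δvps21 replicate 1 or 3, or with only those 2 groups fitted (highest adjusted p 0.182). The other purine permease gene, TRIREDRAFT_52489, and the urea transporter gene, TRIREDRAFT_4950, were not called in any comparison. TRIREDRAFT_52489 had 11.2, 5.73 and 9.75 CPM in Δvps21, 15, 5.03 and 3.66 CPM in Δvps13, and 6.38, 4.47 and 3.69 CPM in wild type. TRIREDRAFT_4950 had 4.69, 2.99 and 1.95 CPM in Δvps21, 19.4, 4.14 and 4.01 CPM in Δvps13, and 5.75, 3.49 and 4.44 CPM in wild type. In both, replicate 1 of Δvps13 stood above all other libraries.

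The 5 genes with too few counts to test include the nitrate reductase gene, TRIREDRAFT_81955, with 0, 1 and 5 counts in Δvps21, 0, 0 and 0 in Δvps13, and 7, 1 and 2 in wild type. The others are the amino acid transporter genes TRIREDRAFT_68831, TRIREDRAFT_82014, TRIREDRAFT_66611 and TRIREDRAFT_64971, of which the last had 0 counts in all libraries. No difference could be detected in these genes at this depth. Of the 35 tested genes, 19 were called in none of the 3 comparisons, with log2 values of -1.08 to 0.87 in Δvps21 and -1.17 to 1.47 in Δvps13, each against wild type.

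Across the 3 comparisons, 3 genes rose in both deletion strains against wild type without being called different between them (TRIREDRAFT_110813, TRIREDRAFT_67806 and TRIREDRAFT_124002), and 1 fell in both (TRIREDRAFT_74070). The 4 genes that were higher in Δvps21 than in wild type and also higher than in Δvps13 were TRIREDRAFT_121486, TRIREDRAFT_121942, TRIREDRAFT_123611 and TRIREDRAFT_62198. The 2 genes lower in Δvps21 than in both other strains were TRIREDRAFT_123718 and TRIREDRAFT_22705, and TRIREDRAFT_43671 was higher in Δvps13 than in both. How many of all tested genes show each of these patterns was not counted, so the patterns are not shown to be particular to uptake genes. Of 27 called differences in all, 15 kept their call under every alternative setting that gave a value, and 12 lost it under 1 or more. The 15 include all calls of TRIREDRAFT_110813, TRIREDRAFT_124002, TRIREDRAFT_121486, TRIREDRAFT_123611 and TRIREDRAFT_123718.

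The libraries of Δvps13 differed more among themselves than those of the other strains. For the tested uptake genes with counts in all 3 libraries of a strain, the median ratio of the highest to the lowest library was 1.42 in Δvps21 (34 genes), 1.92 in Δvps13 (35 genes) and 1.36 in wild type (35 genes). The ratio was above 3 for 1 gene in Δvps21, 10 genes in Δvps13 and 1 gene in wild type. The highest Δvps13 library was replicate 1 for 18 genes, replicate 2 for 5 and replicate 3 for 12. Besides TRIREDRAFT_121486 (20.7-fold), the ratio was largest for TRIREDRAFT_56314 (18.7-fold, replicate 1 highest) and TRIREDRAFT_70998 (12-fold, replicate 3 highest), both picked after their values were seen.

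The 40 genes lie on 24 scaffolds and only 1 pair of them is adjacent, TRIREDRAFT_47175 and TRIREDRAFT_106297, with 3019 bases between them. In Δvps21 against wild type TRIREDRAFT_47175 had a log2 of 0.80 (SE 0.24) and TRIREDRAFT_106297 a log2 of 0.22 (SE 0.26, adjusted p = 0.552), and the difference between the 2 genes was not tested. No uptake gene overlaps a neighbouring gene in the deposited coordinates. The nearest genes on both sides of TRIREDRAFT_121486 are described only as predicted proteins, at 795 and 4790 bases, and had log2 values of 0.59 (TRIREDRAFT_106677, not called) and 1.04 (TRIREDRAFT_22143, adjusted p = 0.0187) in Δvps21 against wild type.

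Once inside the cell, ammonium is built into glutamate by NADP-dependent glutamate dehydrogenase, or by glutamine synthetase with glutamate synthase, and NAD-dependent glutamate dehydrogenase releases it again. Of 24 genes matched by words for nitrogen assimilation, all tested, 5 rose and 6 fell in Δvps21 and 2 rose and 3 fell in Δvps13, each against wild type, and 4 were higher and 2 lower in Δvps21 than in Δvps13. These are 20.8% higher and 25% lower in Δvps21 (16.7% and 15.8% of all tested genes), 8.33% and 12.5% in Δvps13 (5.65% and 4.75%), and 16.7% and 8.33% between Δvps21 and Δvps13 (7.68% and 7.55%). The 5 calls in Δvps13 became 14 without Δvps13 replicate 3, where 35.8% of all tested genes were called. They became 1 to 3 without any 1 wild-type or Δvps21 library, where 1.83% to 7.35% were called. The NADP-dependent glutamate dehydrogenase gene TRIREDRAFT_73536 rose in Δvps21 (log2 1.81, SE 0.36, adjusted p = 0.00354) and in Δvps13 (log2 2.82, SE 0.37, adjusted p = 0.00264). In Δvps13 the glutamate synthase gene glt1 rose (log2 1.86, adjusted p = 0.00805) and the NAD-dependent glutamate dehydrogenase gene TRIREDRAFT_120943 fell (log2 -1.41, adjusted p = 0.0366). In Δvps21 against wild type these had log2 values of -0.29 and 0.73, and both were called between Δvps21 and Δvps13 (log2 -2.15 and 2.15, adjusted p = 0.00214 and 0.00457).

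Genes described as amidases, which release ammonia from amides, moved in both directions. TRIREDRAFT_109378 rose 28.9-fold in Δvps21 (log2 4.86, SE 0.36, adjusted p = 1.59e-05) and was higher than in Δvps13 (log2 3.65). TRIREDRAFT_68615 rose in Δvps21 (log2 2.33), and TRIREDRAFT_121154 fell there (log2 -2.20) and was lower than in Δvps13 (log2 -2.00). TRIREDRAFT_70375 fell in Δvps21 and Δvps13 (log2 -1.66 and -1.28), as did TRIREDRAFT_108885 (log2 -0.93 and -1.10). Of the copper amine oxidase genes, TRIREDRAFT_121156 fell in Δvps21 (log2 -1.43), at means of 4.43 CPM in Δvps21 and 11.9 CPM in wild type. The more abundant TRIREDRAFT_122963, picked after its values were seen, rose there (log2 1.31, adjusted p = 0.0268), at 83.3 CPM in Δvps21 and 33.7 CPM in wild type. The word match also took in a ceramidase gene, TRIREDRAFT_64397, called between Δvps21 and Δvps13 (log2 0.75), an enzyme of sphingolipid breakdown. It further took in a phytoceramidase-like gene (TRIREDRAFT_58162) and a glycosylphosphatidylinositol transamidase gene (TRIREDRAFT_74947), neither called in any comparison. All of these are part of the counts and percentages of the assimilation list.

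Secreted and vacuolar proteases supply peptides and amino acids to the carriers above. Of 38 tested genes matched by words for proteases and peptidases, 10 rose and 7 fell in Δvps21 against wild type. In Δvps13 against wild type 1 rose and 3 fell, and 9 were higher and 4 lower in Δvps21 than in Δvps13. These are 26.3% higher and 18.4% lower in Δvps21 (16.7% and 15.8% of all tested genes), 2.63% and 7.89% in Δvps13 (5.65% and 4.75%), and 23.7% and 10.5% between Δvps21 and Δvps13 (7.68% and 7.55%). Not all of the 38 are secreted or vacuolar proteases, since the words also matched the proteasome subunit genes TRIREDRAFT_78882, psa5 and TRIREDRAFT_121343. TRIREDRAFT_78882 was called higher in Δvps21 than in wild type (log2 1.16) and than in Δvps13 (log2 0.72). The gene psa5 was called higher in Δvps21 than in Δvps13 (log2 0.74). The 4 calls in Δvps13 became 0 when any 1 wild-type library was left out (1.83% to 3.14% of all tested genes called). They became 1 when Δvps13 replicate 2 (5.44%) and 21 when Δvps13 replicate 3 (35.8%) was left out. DESeq2 with all libraries made 10 (18.2%). The 13 calls between Δvps21 and Δvps13 became 4 or 5 without any 1 Δvps21 library (5.7% to 8.55%). Without wild-type replicate 1 they became 8 (11.6%). The gene with the largest rise in Δvps21, and the 1 that rose in Δvps13, was TRIREDRAFT_72379, a proteinase inhibitor gene and not a protease gene (log2 5.99 in Δvps21 and 3.54 in Δvps13, and 2.46 between Δvps21 and Δvps13). It had 101.3, 273.1 and 10.86 CPM in Δvps13, against 11.69, 10.68 and 10.84 CPM in wild type. Δvps13 replicate 3 thus lay among the wild-type libraries. The peptidase M18-like gene TRIREDRAFT_47127 rose in Δvps21 (log2 2.64, SE 0.33, adjusted p = 0.00027) and was higher than in Δvps13 (log2 2.02). The serine protease genes TRIREDRAFT_72321 and TRIREDRAFT_58698 fell in Δvps21 (log2 -2.30 and -1.65). TRIREDRAFT_72321 also fell in Δvps13 (log2 -1.25), and TRIREDRAFT_58698 was lower in Δvps21 than in Δvps13 (log2 -2.24). In Δvps21 falls were also called for the CaaX-protease gene TRIREDRAFT_124222 (log2 -1.71) and an aspartyl protease gene model without a RefSeq name (log2 -1.46). The aminopeptidase gene TRIREDRAFT_81070 was higher in Δvps21 than in Δvps13 (log2 1.17), as was a gene model of the ubiquitin family (log2 1.68). The aspartic peptidase gene TRIREDRAFT_121133 rose in Δvps21 (log2 1.20) and fell in Δvps13 (log2 -0.90), and the difference between Δvps21 and Δvps13 was called (log2 2.10, adjusted p = 0.000233).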

How the data were processed

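Per the labels, poly-A RNA of mycelia was made into libraries with no strand-marking step named. HISAT2 2.0.5 and featureCounts 1.5.0-p3 are the alignment and counting tools named in the submitters' processing notes. The genome build is not given in the sources used here. The authors deposited whole-number counts and FPKM. The deposited FPKM are the counts divided by gene length and by 1 scaling value per library, so they are not independent of the counts, and serve here for levels between genes. All 40 genes matched a RefSeq table of the QM6a v2.0 assembly; coordinates are those of the deposited table.

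Counts were filtered with edgeR filterByExpr (minimum count 10; 8906 genes), TMM-scaled, and tested with edgeR's quasi-likelihood model of 1 mean for each strain over all 9 libraries (6 residual degrees of freedom). CPM are after TMM scaling, and whether libraries of single genes overlapped is stated on that scale only. The TMM factor was 0.6987 for Δvps13 replicate 3 and 0.8405 to 1.213 for the other libraries. SE is the log2 ratio divided by the square root of the F statistic. The work used edgeR 4.0.16, DESeq2 1.42.0 and limma 3.58.1 under R 4.3.3, and the fit was checked on simulated counts. Total counts were 12127372 to 13493219 per library, and depth limits the genes of a few counts. Replicates differed beyond sampling noise (chi-square per degree of freedom 13.1 to 334).

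Genes named were TRIREDRAFT_121486, TRIREDRAFT_110813 and TRIREDRAFT_124002, called genes whose mean reached 10 CPM in a strain, the 3 most abundant of each role, and the untested genes. From each word list of assimilation and protease genes, up to 6 called genes per comparison with 10 CPM or more were considered. The genes, lists and comparisons were chosen with earlier results of these data known. Alternatives were DESeq2, limma on log2(FPKM + 1), fits of 2 groups, other scalings and filters, a log2 threshold of 1, a replicate block, leaving out each library, and, added after seeing the data, limma voom with sample quality weights.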

Additional observations from a re-analysis of the deposited data

Results flagged for a closer look

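For 7 uptake genes the 2 deletion strains differed by a direct test (edgeR quasi-likelihood, Δvps21 against Δvps13, adjusted p below 0.05). The log2 change in Δvps21 minus that in Δvps13, both against wild type, was 5.11 for TRIREDRAFT_121486, 1.91 for TRIREDRAFT_123611, 1.70 for TRIREDRAFT_121942 and 0.801 for TRIREDRAFT_62198. It was -6.60 for TRIREDRAFT_123718, -2.95 for TRIREDRAFT_43671 and -0.945 for TRIREDRAFT_22705. Of these, the differences of TRIREDRAFT_121486, TRIREDRAFT_123611 and TRIREDRAFT_123718 kept their call without any 1 library and under every other setting that gave a value.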

How the results depend on the processing

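Of the 27 called differences of single genes, none changed sign under any setting, 15 kept their call under all and 12 lost it under at least 1. Of 78 differences that were not called, 35 were called under at least 1 setting. Neither count was made over all tested genes, and the share of these that was called varied widely between settings, as given below. Leaving out 1 library moved the counts of uptake genes in Δvps21 against wild type between 9 and 11 higher and 2 and 5 lower. In Δvps13 against wild type they moved between 2 and 14 higher and 0 and 6 lower, and in Δvps21 against Δvps13 between 2 and 4 higher and 1 and 5 lower. The share of all tested genes called moved between 18.9% and 46.9%, 1.83% and 35.8%, and 5.7% and 24.5% in the same 3 comparisons. In a fit of the 2 groups alone, 12 were higher and 9 lower in Δvps21 against wild type (55.4% of all tested genes called), 2 higher and 0 lower in Δvps13 against wild type (3.42%), and 3 higher and 1 lower in Δvps21 against Δvps13 (7.14%). With 10 CPM or more required in 3 libraries, 2, 1 and 1 were lower in the same 3 comparisons. Only 6134 genes were then tested, of which 36.3%, 11.5% and 17.5% were called in either direction. In Δvps13 against wild type, 4 were lower when scaled by library totals only (14.2% of all tested genes called in either direction). There, 1 was lower with limma on log2(FPKM + 1) (10.4%), with a replicate block (9.06%) and with a log2 threshold of 1 (all-gene share not counted). With sample quality weights, chosen after seeing the data, 12 rose and 10 fell in Δvps21 against wild type (61.9% of all tested genes called), 10 rose and 8 fell in Δvps13 against wild type (46.9%), and 9 were higher and 3 lower in Δvps21 against Δvps13 (33.8%); Δvps13 replicates 1, 2 and 3 had weights of 0.187, 2.73 and 0.171. The cause was not tested. The labels do not say whether libraries of the same number share a batch. Between strains, correlations of same-numbered libraries' deviations ran from -0.0981 to 0.47, and those of differently numbered libraries from -0.427 to 0.419. The call lost with the replicate block was that of TRIREDRAFT_57185. Depth limits the 5 untested genes.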
